A study of Rattus norvegicus with 18 samples.

Results

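MicroRNAs (miRNAs) were compared between injured rats whose forelimb muscles received a neurotrophin-3 (NT3) vector and injured rats that received a green fluorescent protein (GFP) vector, in 6 and 6 libraries of the 18 in the series. Mature rat miRNAs were included where more than 10 reads were counted in at least 6 of the 18 libraries, which left 373 of the 753 miRNAs listed. All rats were adult Lister hooded rats. Rats of both injured groups had both corticospinal tracts cut in the medullary pyramids (bilateral pyramidotomy, bPYX), and a day later adeno-associated virus AAV1 was injected into the forelimb flexors on 1 side. In the bPYX+NT3 group the virus carried human prepro-neurotrophin-3, and in the bPYX+GFP group it carried GFP, both behind the CMV promoter, which is active in many cell types. The C6-8 dorsal root ganglia of the treated side were taken 10 weeks after injury and pooled within each rat, so that each library came from 1 rat. The remaining 6 libraries came from naive rats without operation or vector, and their levels are given for orientation, with no test. Every injured rat carried both a lesion and a vector, so the comparison concerns NT3 against GFP on the background of injury and virus. Whole ganglia were homogenized, and in such bulk samples fewer cells of a type and less RNA per cell cannot be told apart. The transgenes are mRNAs and were not measured in this small RNA table.

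NT3 is a growth factor made by muscle and taken up by sensory nerve endings, where it binds the receptor tyrosine kinase TrkC, which marks the proprioceptive neurons of the ganglion. miRNAs are short RNAs that guide Argonaute proteins to messenger RNAs, mostly through the seed, bases 2 to 8 from the 5′ end, and they lower the stability or translation of their targets. miRNAs with the same seed form a family with largely shared targets, and each hairpin precursor can release a miRNA from its 5′ arm (5p), its 3′ arm (3p) or both.

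Called miRNAs with small p-values are shown here where a sequence was matched, some with relatives that share their seed, because the results below are given both per miRNA and per seed. Sequences are the RefSeq mature forms (annotation of GRCr8), which were found for 350 of the 373 miRNAs. The other 23, miR-30e-3p among them, are named without a sequence and are in no seed family. The sequences run 5′ to 3′ with the seed in capitals. Those higher in bPYX+NT3, and the relatives chosen, were:
miR-193a-3p: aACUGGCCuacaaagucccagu
miR-193b-3p: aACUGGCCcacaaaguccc
miR-146b-5p: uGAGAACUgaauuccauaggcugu
miR-146a-5p: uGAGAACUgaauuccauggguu
miR-181c-5p: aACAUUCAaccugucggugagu
miR-181d-5p: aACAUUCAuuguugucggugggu
miR-181b-5p: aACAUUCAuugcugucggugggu
miR-344b-1-3p: gAUAUAACcaaagcccgacugu
miR-410-3p: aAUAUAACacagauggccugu
miR-22-3p: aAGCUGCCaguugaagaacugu
miR-582-5p: uACAGUUGuucaaccaguuacu
miR-324-5p: cGCAUCCCcuagggcauuggugu
miR-592: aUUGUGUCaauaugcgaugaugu

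Those lower in bPYX+NT3, and the relatives chosen, were:
miR-148a-3p: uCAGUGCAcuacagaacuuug
miR-148b-3p: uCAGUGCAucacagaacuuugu
miR-152-3p: uCAGUGCAugacagaacuugg
miR-455-3p: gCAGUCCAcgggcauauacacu
miR-874-3p: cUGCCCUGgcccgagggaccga
miR-672-3p: aCACACAGucgccaucuucga
let-7d-3p: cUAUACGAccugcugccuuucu
miR-379-3p: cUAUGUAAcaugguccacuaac
miR-27a-3p: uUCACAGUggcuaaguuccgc

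Depth was similar in both groups. The miRNA counts were 4.92 ± 0.987 M per library in bPYX+GFP and 4.41 ± 0.426 M in bPYX+NT3 (mean ± SD, n = 6 each), from 3.88 to 6.92 M, with bPYX+GFP replicate 3 the deepest. Between 32.4 and 38.2% of the entries in a library were miRNA counts. Levels are counts per 1000000 miRNA counts (CPM) after TMM scaling, a correction for unequal library composition. Ganglion RNA carried the sensory miRNAs miR-182 (median 26166 CPM in bPYX+GFP) and miR-96-5p (4543 CPM), whereas miR-183-5p of the same cluster was listed at 0 in all 12 libraries. The glial miR-338-3p, the muscle miR-1-3p and miR-133a-3p and the collagen-repressing miR-29a-3p were also listed at 0, and miR-124-3p and miR-26a-5p had at most 7 and 10 counts in a library, so no difference could be read for these. The cause of these zeros was not tested. miR-1b, listed apart from miR-1-3p, was abundant, with 30981 to 69841 counts in a library.

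Libraries did not separate by treatment. In a principal component analysis of the 12 libraries over the 373 miRNAs, the first component held 25.1% of the variance and was set by bPYX+NT3 replicates 3 and 5, at 7.49 and 3.89, with the other 10 libraries between -2.69 and 1.36. The second component (15.5%) was set by bPYX+GFP replicate 4, at 5.85. Spearman correlations between pairs of libraries were 0.981 to 0.995, and 6 of the 12 libraries had a higher median correlation with the other group than with their own. The median coefficient of variation (CV) of a miRNA was 16.9% in bPYX+NT3, 12.9% in bPYX+GFP and 13.9% in naive rats. Without bPYX+NT3 replicates 3 and 5 it was 13.2% in bPYX+NT3. Because these 2 libraries stood apart, values without both of them are given beside each called miRNA and seed family described in full, and beside some other results that they moved.

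**Figure D1:**
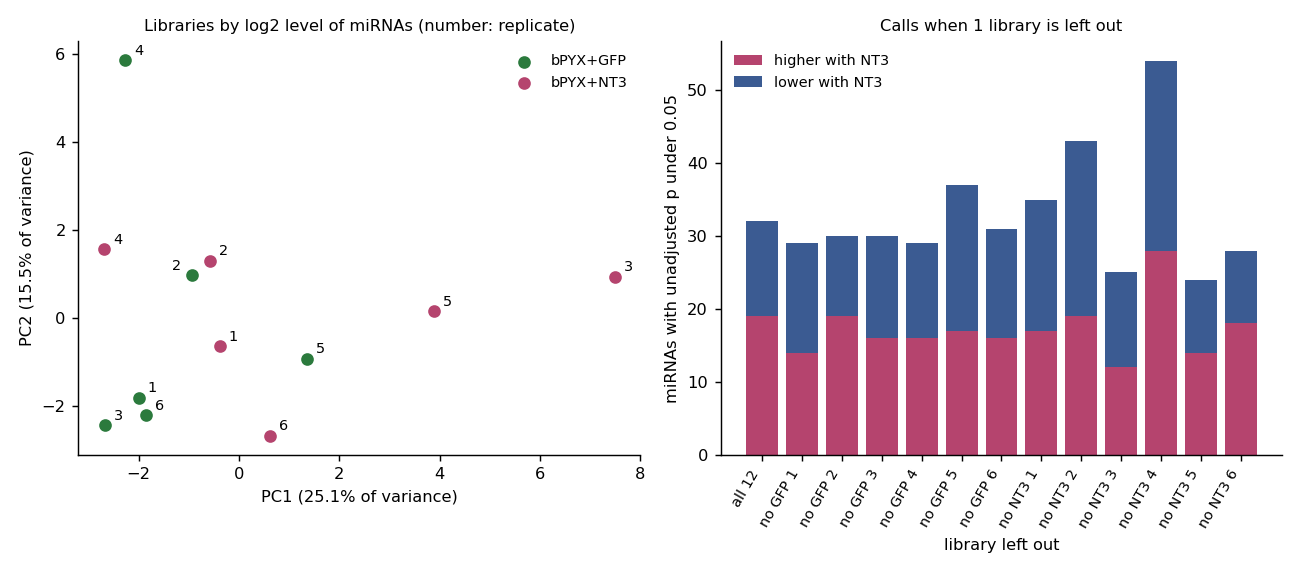
Left, the first 2 principal components of the 12 injured libraries over log2 levels of 373 miRNAs, with each point labelled by its replicate number. bPYX+NT3 replicates 3 and 5 lie to the right of the other 10 libraries, which mix. Right, miRNAs with an unadjusted p under 0.05, higher or lower with NT3, for all 12 libraries and with each library left out, from 24 to 54 calls against 32.

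No miRNA passed a correction for the number of miRNAs tested. In the edgeR fit (quasi-likelihood, Benjamini-Hochberg adjustment over the 373) the count under an adjusted p of 0.05 was 0 (0.0%), and 14 miRNAs shared the smallest adjusted p, 0.217. DESeq2 and edgeR's likelihood ratio test also called 0, with smallest adjusted p of 0.120 and 0.153. At an unadjusted p under 0.05, termed a call from here on, edgeR gave 32 miRNAs or 8.58% of those tested, where 18.65 would be expected if nothing differed. Of these, 19 (5.09%) were higher and 13 (3.49%) lower with NT3. Leaving out bPYX+NT3 replicate 4 raised the count to 54, leaving out bPYX+NT3 replicate 3 or 5 gave 25 or 24, and leaving out both gave 20, of which 7 were higher and 13 lower and 14 were among the 32. In CPM scaled over all 18 libraries, the 2 groups separated without overlap for no miRNA (0.0%). On that scale all 6 bPYX+NT3 libraries lay on 1 side of the bPYX+GFP mean for 36 (9.65%). Beside each called miRNA, and some others, stands the p of an exact two-sided permutation test of its log2 levels (exact p). The smallest value that 6 against 6 libraries allow for it is 0.00216. By that test 29 miRNAs had a p under 0.05, of which 27 were among the 32.

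Differences were small across the profile. The median absolute log2 fold change over the 373 miRNAs was 0.12, and over the 32 called it was 0.34, a size those miRNAs were partly chosen for. The 95% confidence interval of the fold change lay within a 2-fold change either way for 356 miRNAs and within 1.5-fold for 271, so a larger difference in these was outside the interval. The 17 miRNAs whose interval reached beyond 2-fold were mostly of low level, 13 of them under 10 CPM. Precision followed abundance, with a median standard error of 0.09 log2 units among the 64 miRNAs of at least 1000 CPM and 0.24 among the 79 under 10 CPM. Those tiers had 8 (12.5%) and 6 (7.59%) calls. Of all 373 miRNAs, 186 (49.9%) were fitted higher with NT3.

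**Figure D2:**
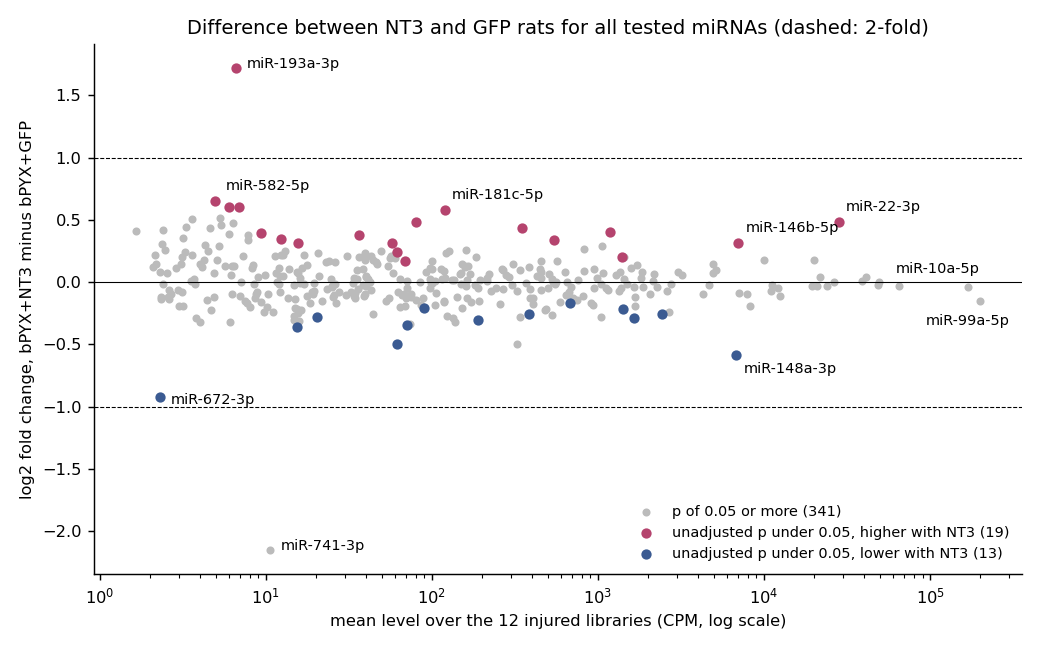
Each point is 1 of 373 miRNAs, with the mean CPM over the 12 injured libraries on a log axis and the log2 fold change of bPYX+NT3 over bPYX+GFP. Coloured points had an unadjusted p under 0.05 (19 higher, 13 lower), none had an adjusted p under 0.05, and 2 points lie beyond 2-fold (dashed), miR-193a-3p and miR-741-3p.

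The most abundant miRNAs differed little between the groups. The 5 most abundant miRNAs held 53.5 ± 2.64% of counts (SD over 12 libraries). First was miR-99a-5p with 20.1% of counts, and its log2 fold change with NT3 was -0.15 ± 0.10 (standard error, as for all fold changes here; exact p = 0.175). Next came the miRNAs of the Hox gene clusters, which mark position along the body axis. miR-10a-5p (17.0% of counts) differed by -0.04 ± 0.11 log2 units and miR-10b-5p (6.51%) by -0.03 ± 0.10. The smooth muscle miRNA miR-143-3p (4.99%) differed by 0.00 ± 0.11, or by -0.15 without bPYX+NT3 replicates 3 and 5, and the endothelial miR-126a-3p (2.41%) by -0.03 ± 0.09. Among the 10 most abundant miRNAs, miR-22-3p alone was called.

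miR-22-3p, an abundant miRNA known from cardiac and skeletal muscle growth, was the eighth most abundant in these ganglia. It was at 21124 to 26339 CPM (median 24094) in bPYX+GFP and at 25828 to 45659 CPM (median 28750) in bPYX+NT3. All 6 bPYX+NT3 libraries were above the bPYX+GFP mean and 5 were above its highest library, with replicates 3 and 5 far higher than the rest. The log2 fold change was 0.48 ± 0.14 (exact p = 0.00866, edgeR adjusted p = 0.217). Without replicates 3 and 5 it was 0.20 and still called. Naive libraries had 22596 to 33281 CPM (median 27402). The other arm of its precursor, miR-22-5p, lay on the other side of 0, at a log2 fold change of -0.26 ± 0.13 (exact p = 0.0887) with medians of 564.5 CPM in bPYX+GFP and 498.1 CPM in bPYX+NT3, and at -0.12 without replicates 3 and 5.

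miR-193a-3p, described as growth-suppressing in several tumours, had the largest fold change of the 32. Its counts were 10 to 22 in the bPYX+GFP libraries, 13 to 23 in 4 bPYX+NT3 libraries, and 118 and 94 in bPYX+NT3 replicates 3 and 5. In CPM, bPYX+GFP ran from 2.30 to 4.27 (median 3.09) and bPYX+NT3 from 3.00 to 25.0 (median 5.13), with naive rats at 1.75 to 5.06. Replicates 3 and 5 were far above all others, and 5 of 6 bPYX+NT3 libraries exceeded the highest bPYX+GFP library. By edgeR it differed by 1.72 ± 0.49 log2 units (exact p = 0.0173, adjusted p = 0.217), with a 95% interval from 0.67 to 2.77. Without both libraries the difference was 0.47 and not called.

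Of the miR-181 and miR-146 families, single members were called. miR-181c-5p, known from lymphocytes and astrocytes, was at 80.9 to 113.4 CPM (median 96.6) in bPYX+GFP and 105.9 to 216.4 CPM (median 117.5) in bPYX+NT3. Its highest libraries were again bPYX+NT3 replicates 3 and 5, and 5 libraries were above all of bPYX+GFP. With NT3 it was 0.58 ± 0.19 log2 units higher (exact p = 0.0238, edgeR adjusted p = 0.217), and 0.21 without these 2 libraries, which ended the call. miR-181d-5p and miR-181b-5p, with the same seed, differed by 0.04 ± 0.08 and -0.02 ± 0.14 log2 units, or by 0.03 and -0.19 without both libraries, and neither these differences between relatives nor those below were tested. miR-146b-5p dampens Toll-like receptor signalling through the adaptors Traf6 and Irak1. It was at 5382 to 7488 CPM (median 6213) in bPYX+GFP and 6689 to 9024 CPM (median 7681) in bPYX+NT3, with 4 libraries above all of bPYX+GFP. Its log2 fold change was 0.31 ± 0.09 (exact p = 0.00866, edgeR adjusted p = 0.217), and 0.24 and still called without replicates 3 and 5. Naive rats had 7041 to 11745 CPM. miR-146a-5p, which shares its seed, was at -0.04 ± 0.13 (exact p = 0.816), and at -0.21 without replicates 3 and 5.

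Another 3 miRNAs that were higher with NT3 were among the 14 of smallest adjusted p. miR-582-5p, transcribed from within the phosphodiesterase gene Pde4d, was rare, with 14 to 25 counts in the bPYX+GFP and 20 to 38 in the bPYX+NT3 libraries. Its medians were 3.56 and 5.66 CPM, and the log2 fold change was 0.65 ± 0.20 (exact p = 0.00649), and 0.67 and still called without replicates 3 and 5. For miR-324-5p, a repressor of Hedgehog signalling, medians were 50.2 and 62.1 CPM and the log2 fold change was 0.31 ± 0.10 (exact p = 0.0108). Without replicates 3 and 5 it was 0.20 and not called. The groups overlapped for both, with 2 and 3 libraries above the highest of bPYX+GFP. miR-592, from an intron of the glutamate receptor gene Grm8, had medians of 29.8 and 41.0 CPM and a log2 fold change of 0.38 ± 0.12 (exact p = 0.0173), with 5 of 6 bPYX+NT3 libraries above the bPYX+GFP mean. It was 0.29 and not called without replicates 3 and 5.

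Among called miRNAs lower with NT3, miR-148a-3p, a repressor of the DNA methyltransferase Dnmt1, was the most abundant. It was at 5928 to 14544 CPM (median 7008) in bPYX+GFP, at 4372 to 6386 CPM (median 5364) in bPYX+NT3 and at 4268 to 6060 CPM (median 5033) in naive rats. bPYX+GFP replicate 3 stood well above the rest, and every bPYX+NT3 library but 1 was under the lowest of bPYX+GFP. Its log2 fold change was -0.58 ± 0.17 (exact p = 0.00649, edgeR adjusted p = 0.217). Without bPYX+GFP replicate 3 it was -0.36, and without bPYX+NT3 replicates 3 and 5 it was -0.56, both still called.

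miR-455-3p, encoded in the collagen gene Col27a1 and best known in cartilage, led the edgeR ranking. Levels were 190.2 to 219.5 CPM (median 216.4) in bPYX+GFP, 147.8 to 195.0 CPM (median 166.2) in bPYX+NT3 and 152.8 to 198.9 CPM (median 185.6) in naive rats. All 6 bPYX+NT3 libraries were below the bPYX+GFP mean and 4 were below its lowest library. The log2 fold change was -0.31 ± 0.09 (exact p = 0.00433, edgeR adjusted p = 0.217), and -0.26 and still called without replicates 3 and 5.

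Several of the lower miRNAs were 3p forms whose 5p partner was also measured. miR-30e-3p was at 383.1 to 458.5 CPM (median 418.5) in bPYX+GFP and 298.7 to 386.7 CPM (median 355.6) in bPYX+NT3. Of its bPYX+NT3 libraries 5 were below all of bPYX+GFP, and the log2 fold change was -0.25 ± 0.07 (exact p = 0.00216, edgeR adjusted p = 0.217). It was -0.22 and still called without replicates 3 and 5. The 5p form miR-30e-5p, at a median of 1775 CPM in bPYX+GFP, was at 0.08 ± 0.07. let-7d-3p was at 1744 to 1902 CPM (median 1825) in bPYX+GFP and at 1176 to 1758 CPM (median 1564) in bPYX+NT3, where 5 libraries were below all of bPYX+GFP and replicates 3 and 5 were lowest. This was a log2 fold change of -0.29 ± 0.09 (exact p = 0.00433), and of -0.19, still called, without those libraries. let-7d-5p, the less abundant arm in these counts at a median of 18.9 CPM in bPYX+GFP, was at -0.07 ± 0.17. miR-379-3p, from the imprinted Dlk1-Dio3 locus, had medians of 69.1 and 55.3 CPM and a log2 fold change of -0.50 ± 0.16 (exact p = 0.0130), or -0.40 without replicates 3 and 5, while miR-379-5p was at -0.03 ± 0.09. Naive rats had a median of 38.8 CPM of miR-379-3p.

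A further 3 called miRNAs were lower with NT3. miR-874-3p, from the kelch gene Klhl3, had medians of 78.1 CPM in bPYX+GFP and 61.9 CPM in bPYX+NT3 and a log2 fold change of -0.34 ± 0.11 (exact p = 0.0216). miR-27a-3p, a repressor of adipocyte differentiation, had medians of 2603 and 2191 CPM and a log2 fold change of -0.26 ± 0.09 (exact p = 0.0130). Its relative miR-27b-3p, with the same seed and a median of 40859 CPM in bPYX+GFP, was at 0.04 ± 0.07. miR-672-3p lay at the edge of detection, with 9 to 20 counts in bPYX+GFP and 3 to 12 in bPYX+NT3 libraries, and its log2 fold change was -0.92 ± 0.30 (exact p = 0.0130). All 3 were still called without replicates 3 and 5, at -0.29, -0.21 and -0.74.

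**Figure D3:**
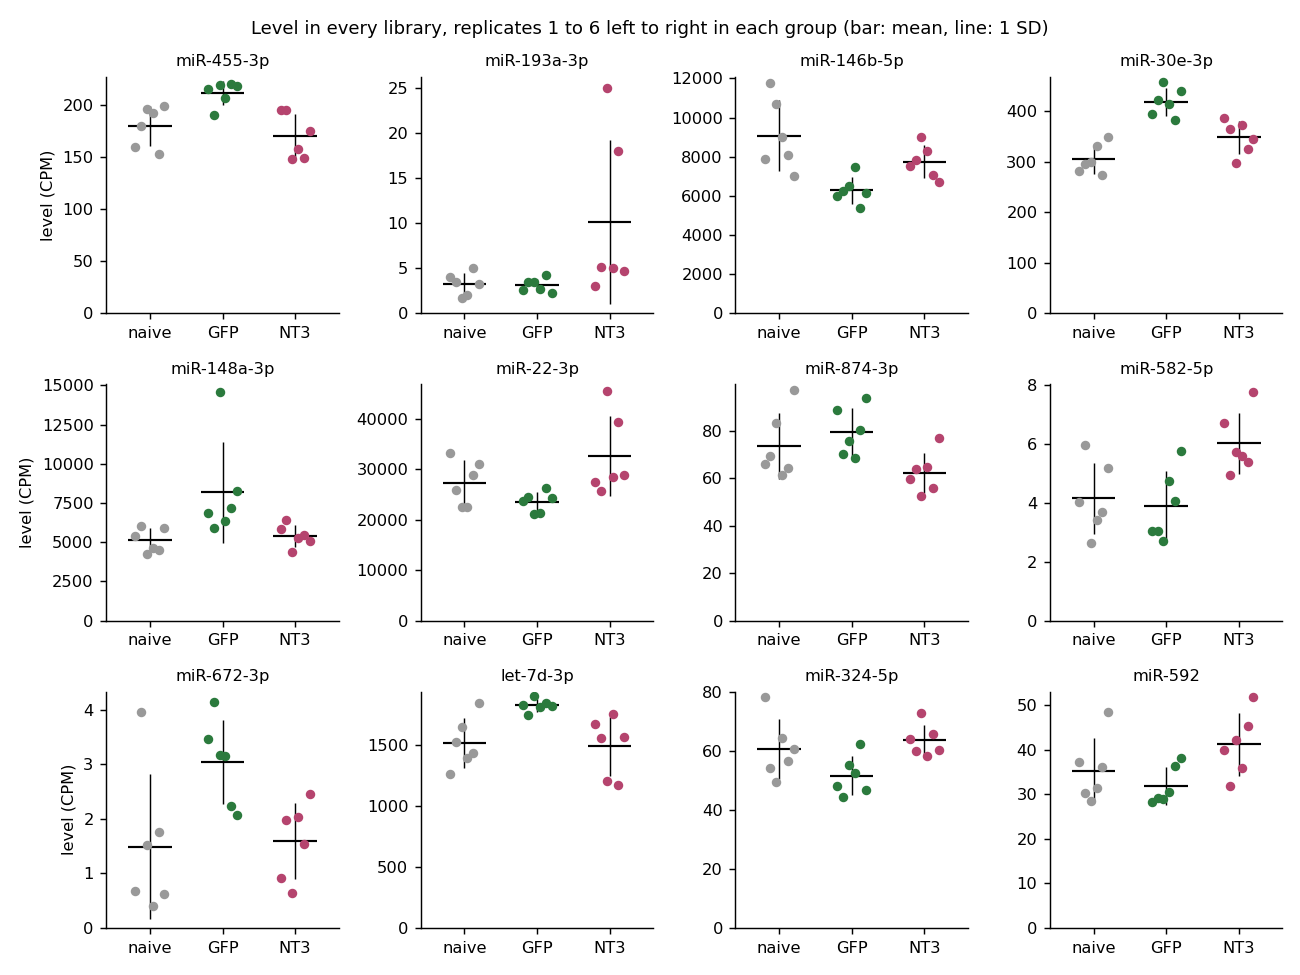
Level in CPM of the 12 miRNAs with the smallest p in every naive, bPYX+GFP and bPYX+NT3 library, replicates 1 to 6 from left to right, with the mean and 1 SD (n = 6). On this scale, set over all 18 libraries, the groups overlap for all 12. bPYX+NT3 replicates 3 and 5 carry the high levels of miR-193a-3p and miR-22-3p, and bPYX+GFP replicate 3 that of miR-148a-3p.

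The calls differed in how far they rested on single rats. With each of the 12 libraries left out in turn, 18 of the 32 miRNAs stayed called throughout. These were the 15 called miRNAs described so far and 3 others. miR-29a-5p, the minor strand of a miRNA known to repress collagens, had medians of 5.34 and 8.13 CPM and a log2 fold change of 0.60 ± 0.21 (exact p = 0.0216), while miR-29a-3p was listed at 0. miR-384-5p, which carries the miR-30 seed and is known in neurons, had medians of 454.9 and 549.2 CPM and a log2 fold change of 0.34 ± 0.13 (exact p = 0.0368). miR-30a-3p had medians of 708.4 and 628.2 CPM and a log2 fold change of -0.17 ± 0.06 (exact p = 0.00216). Without bPYX+NT3 replicates 3 and 5 together, miR-29a-5p (0.52) and miR-30a-3p (-0.16) were still called and miR-384-5p (0.13) was not. Over all 23 alternatives run, miR-30a-3p lost its call in 1, which was not a fit with libraries left out.

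The other 14 miRNAs lost the call without at least 1 library. Among the higher ones, miR-145-5p, a marker of smooth muscle, was at 0.40 ± 0.16 log2 units (exact p = 0.0801) and lost the call without bPYX+GFP replicate 2 or 4 or bPYX+NT3 replicate 3 or 5, with 0.25 to 0.49 over the 12 fits. The neuronal miR-137-3p was at 0.44 ± 0.18 (exact p = 0.0736), and the call was lost without bPYX+GFP replicate 1, 3 or 4 or bPYX+NT3 replicate 3 or 5 (0.26 to 0.54). miR-205, an epithelial miRNA, was at 0.49 ± 0.22 (exact p = 0.154), and lost it without bPYX+GFP replicate 1, 3, 4 or 6 or bPYX+NT3 replicate 1 or 3 (0.32 to 0.58). miR-490-3p, from the muscarinic receptor gene Chrm2, was at 0.24 ± 0.10 (exact p = 0.0303), lost without bPYX+GFP replicate 1 or 5 or bPYX+NT3 replicate 3, 4 or 5 (0.18 to 0.28). These 4 had log2 fold changes of 0.10, 0.11, 0.37 and 0.18 without bPYX+NT3 replicates 3 and 5 together and were not called.

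Of the remaining higher miRNAs, let-7g-3p was at 0.60 ± 0.24 (exact p = 0.0411) and lost the call without bPYX+GFP replicate 2 or 3 or bPYX+NT3 replicate 3 (0.44 to 0.70). miR-341, of the Dlk1-Dio3 locus, was at 0.20 ± 0.08 (exact p = 0.0260), lost without bPYX+GFP replicate 1, 5 or 6 or bPYX+NT3 replicate 3 or 6 (0.16 to 0.24). miR-666-5p, of the same locus, was at 0.34 ± 0.14 (exact p = 0.0260), lost without bPYX+GFP replicate 5 or bPYX+NT3 replicate 1, 2 or 5 (0.26 to 0.39). miR-344b-1-3p was at 0.32 ± 0.13 (exact p = 0.0173), lost without bPYX+GFP replicate 2, 5 or 6 or bPYX+NT3 replicate 2, 3, 4 or 5 (0.24 to 0.38). miR-146b-3p, the minor strand of miR-146b, was at 0.39 ± 0.17 (exact p = 0.0368), lost without any bPYX+GFP library but replicate 4 and without bPYX+NT3 replicate 1, 3 or 6 (0.23 to 0.47). miR-664-2-5p was at 0.17 ± 0.08 (exact p = 0.0152). Among the fits with a library left out, it kept the call only without bPYX+NT3 replicate 4 (0.14 to 0.19). Over all 23 alternatives run, miR-664-2-5p lost the call in 20. All 6 lost it without bPYX+NT3 replicates 3 and 5 together, at 0.12 to 0.47.

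Of the lower ones, miR-543-3p, also of the Dlk1-Dio3 locus, was at -0.22 ± 0.09 (exact p = 0.0281) and lost the call without bPYX+GFP replicate 2 or 3 or bPYX+NT3 replicate 5 (-0.27 to -0.17). miR-505-5p was at -0.36 ± 0.16 (exact p = 0.0519), lost without bPYX+GFP replicate 2 or 4 or bPYX+NT3 replicate 3, 5 or 6 (-0.44 to -0.26). miR-301a-5p was at -0.28 ± 0.13 (exact p = 0.0411), lost without bPYX+GFP replicate 5 or 6 or bPYX+NT3 replicate 3, 5 or 6 (-0.35 to -0.21). miR-106b-3p, from an intron of the replication gene Mcm7, was at -0.20 ± 0.09 (exact p = 0.0584), lost without bPYX+GFP replicate 1, 2 or 3 or any bPYX+NT3 library but replicate 3 (-0.26 to -0.17). Without bPYX+NT3 replicates 3 and 5 together miR-106b-3p was called, at -0.25, and the other 3 were not, at -0.25 to -0.13.

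Seed families gave the same general picture as single miRNAs. Counts were summed over miRNAs with 1 seed, and of 292 families 0 (0.0%) had an adjusted p under 0.05 (smallest 0.218, edgeR), while 29 (9.93%) were called, 18 higher (6.16%) and 11 lower (3.77%). That count was 46 without bPYX+NT3 replicate 4, 19 without bPYX+NT3 replicate 3 and 19 without replicate 5. Most families had a single member. Among the 37 families with 2 or more tested members, which held 95 miRNAs, 6 (16.2%) were called, 5 higher (13.5%) and 1 lower (2.7%) with NT3, and the adjusted p was under 0.05 for 0 of 37 (0.0%). The 95% interval lay within 2-fold for all 37 and within 1.5-fold for 34. In 15 families all tested members were fitted higher and in 7 all lower.

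The family with seed ACUGGCC, miR-193a-3p and miR-193b-3p, was at 50.8 to 64.4 CPM (median 60.1) in bPYX+GFP and at 61.6 to 83.5 CPM (median 75.7) in bPYX+NT3. Of its bPYX+NT3 libraries 5 were above all of bPYX+GFP, and the log2 fold change was 0.34 ± 0.10 (exact p = 0.00866, edgeR adjusted p = 0.218). Without bPYX+NT3 replicates 3 and 5 it was 0.27 and still called. miR-193b-3p, the more abundant member, was at 0.20 ± 0.11 by itself (exact p = 0.123), at 0.11 without bPYX+NT3 replicate 2, and at 0.26 and called without replicates 3 and 5. The miR-148 and miR-152 family, with seed CAGUGCA, was at 7047 to 17034 CPM (median 8103) in bPYX+GFP and at 5399 to 7435 CPM (median 6551) in bPYX+NT3. Here 5 bPYX+NT3 libraries were below all of bPYX+GFP, and replicate 3 of bPYX+GFP was again the highest. The family's log2 fold change was -0.53 ± 0.17 (exact p = 0.00649, edgeR adjusted p = 0.218), -0.31 without that library and -0.53 without bPYX+NT3 replicates 3 and 5, called in each case. Its 3 members were all fitted lower, miR-148b-3p at -0.50 ± 0.29 and miR-152-3p at -0.19 ± 0.13. Without bPYX+GFP replicate 3 these last values were -0.05 and -0.03, so both rested on that library. They were -0.68 and -0.21 without bPYX+NT3 replicates 3 and 5.

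The other 4 families had smaller or less even differences. miR-344b-1-3p and miR-410-3p, with seed AUAUAAC, together had medians of 18.6 and 22.9 CPM and a log2 fold change of 0.35 ± 0.12 (exact p = 0.0130), and 0.22 and not called without replicates 3 and 5. The miR-146 pair, with seed GAGAACU, was at 0.23 ± 0.09 (exact p = 0.0303), with miR-146b-5p the more abundant member. The call was lost without bPYX+GFP replicate 1, 5 or 6 or bPYX+NT3 replicate 2 or 3, at 0.14 without the last. The 3 miR-181 members, with seed ACAUUCA, were at 0.19 ± 0.09 (exact p = 0.0476) together. miR-326-3p and miR-330-5p, with seed CUCUGGG, were at 0.20 ± 0.09 (exact p = 0.0584). The call of the miR-181 family was lost in 9 of the 12 fits with a library left out, kept only without bPYX+GFP replicate 2 or bPYX+NT3 replicate 1 or 6, and was 0.13 without bPYX+NT3 replicate 3. That of the miR-326 pair was lost in 7, without bPYX+GFP replicate 1, 3, 4 or 6 or bPYX+NT3 replicate 3, 5 or 6, and was also 0.13 without bPYX+NT3 replicate 3. Without replicates 3 and 5 together the miR-146, miR-181 and miR-326 families were at 0.13, 0.07 and 0.05 and were not called. The miR-181 family also lost its call with no detection filter, with edgeR's likelihood ratio test and with the replicate block, the miR-326 pair with no filter, with library-total scaling and with the likelihood ratio test, and the miR-146 pair in the fit of all 3 groups.

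Several families were held within tight limits, and the miR-34 and miR-449 family, given last, within wider ones. The let-7 family, 8 tested miRNAs of seed GAGGUAG that restrain growth and are abundant in mature tissue, was at 67812 to 88213 CPM (median 74300) in bPYX+GFP and at 72575 to 78223 CPM (median 74812) in bPYX+NT3. The log2 fold change was 0.01 ± 0.06 with a 95% interval from -0.12 to 0.14, and its members ran from -0.09 to 0.08. The 5 tested miRNAs of the miR-25 and miR-92 seed, from clusters tied to proliferation, were at 0.02 ± 0.07. The 4 tested miRNAs matched to the miR-30 seed, miR-30a-5p, miR-30c-5p, miR-30e-5p and miR-384-5p, were at -0.01 ± 0.08, although miR-384-5p was one of the 32. miR-30d-5p had no matched sequence and was not in this sum. miR-27a-3p and miR-27b-3p together were at 0.03 ± 0.07. The miR-34 and miR-449 family, whose miR-34a is induced by p53, had 4 tested members all fitted higher and a log2 fold change of 0.24 ± 0.13 (exact p = 0.115), with an interval from -0.03 to 0.50. With bPYX+NT3 replicates 3 and 5 left out, miR-34a-5p was at 0.06 and miR-449a-5p at -0.27.

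**Figure D4:**
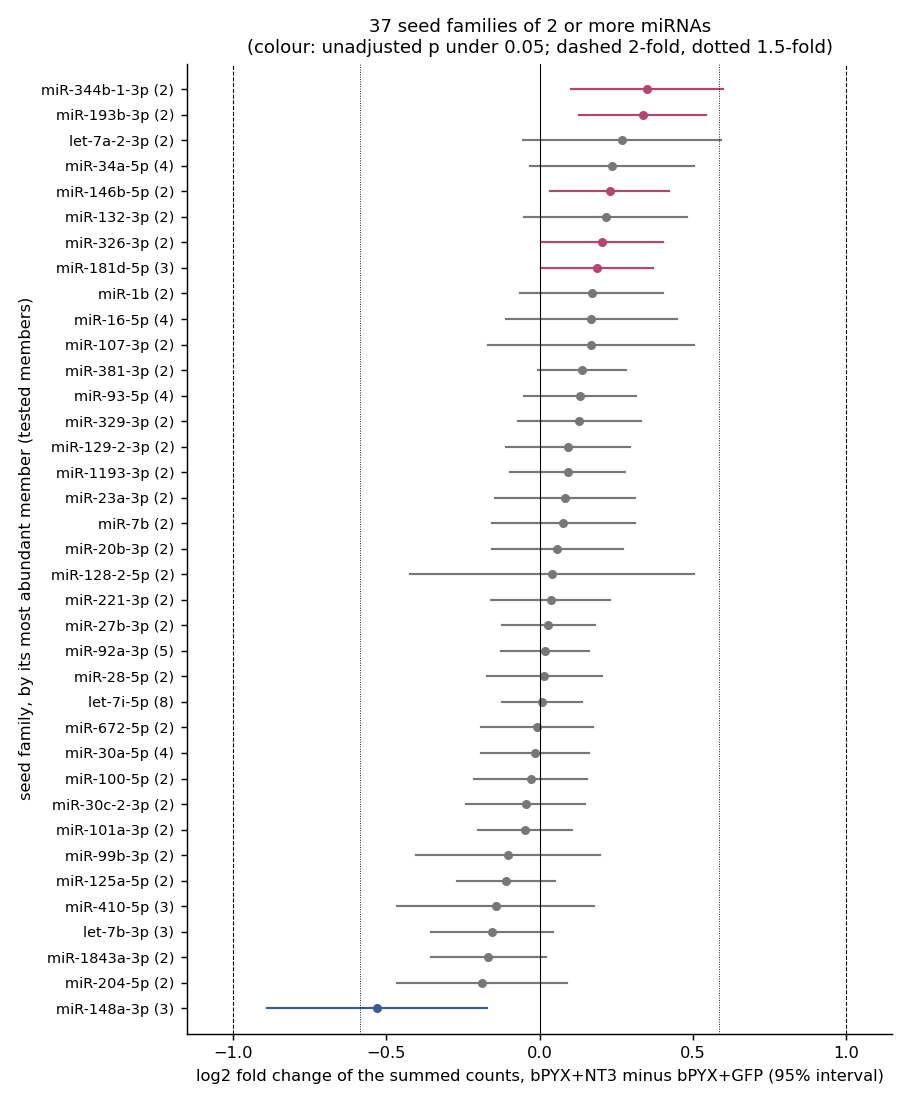
Log2 fold change of bPYX+NT3 over bPYX+GFP with its 95% interval for the summed counts of 37 seed families of 2 or more tested miRNAs, named by the most abundant member with the number of tested members in brackets. All intervals lie inside 2-fold (dashed), 34 lie inside 1.5-fold (dotted), and 6 families with an unadjusted p under 0.05 are coloured.

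The 2 arms of a precursor showed little relation. Both arms were tested for 114 precursors, and the log2 fold changes of the arms had the same sign in 63. Across these precursors, which share the same 12 libraries and are not independent, Pearson's r was 0.115 and Spearman's rho 0.126. At least 1 arm was called for 20 precursors, and miR-146b had both, at 0.31 ± 0.09 for the 5p and 0.39 ± 0.17 for the 3p arm. Among these 20, the other arm had the same sign in 14. Opposite signs were seen for the other 6, miR-22, miR-30e, miR-106b, miR-137 (5p arm -0.22 ± 0.16), miR-148a and miR-181c (3p arm -0.12 ± 0.11). Of the 13 miRNAs lower with NT3, 11 were 3p and 2 were 5p forms, against 7 and 9 of the 19 higher ones and 176 and 167 of all 373, with the others carrying no arm in their name.

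**Figure D5:**
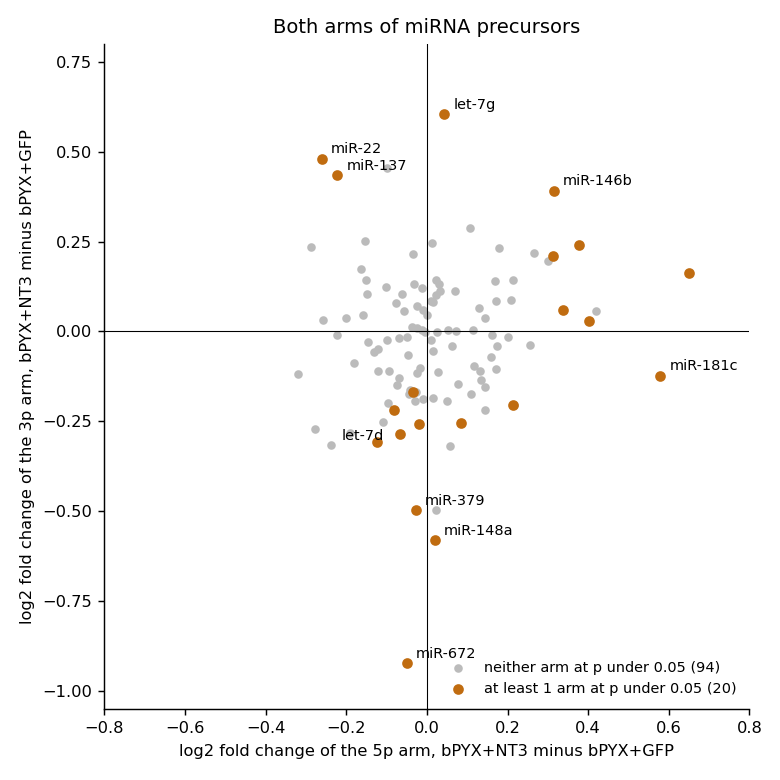
Log2 fold change of bPYX+NT3 over bPYX+GFP of the 5p arm against that of the 3p arm for 114 miRNA precursors, coloured for the 20 with an unadjusted p under 0.05 in at least 1 arm. Points scatter on every side of the origin (Pearson's r 0.115), miR-146b is high for both arms, and miR-22 and miR-137 lie at the upper left.

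Calls in groups of miRNAs known from neurons are to be read against 8.58% of all miRNAs called and a median log2 fold change of 0.00. Among 4 tested miRNAs of the miR-182, miR-96 and miR-183 sensory cluster, 0 were called, and miR-182 was at 0.00 ± 0.07. Of 8 other neuronal miRNAs 1 was called higher, miR-137-3p, and the median was 0.06. In this group miR-138-5p was at 0.29 ± 0.14 (exact p = 0.108), and at 0.07 without bPYX+NT3 replicates 3 and 5. miR-132 and miR-212 are induced by neuronal activity and neurotrophins through the transcription factor CREB. Of their 4 forms 0 were called, with miR-132-3p at 32.3 to 42.6 CPM (median 35.9) in bPYX+GFP and at 32.1 to 54.0 CPM (median 43.1) in bPYX+NT3, a log2 fold change of 0.24 ± 0.12 (exact p = 0.102). The more abundant miR-132-5p was on the other side of 0, at -0.29 ± 0.17, and at -0.08 without bPYX+NT3 replicates 3 and 5. The median of the 4 forms was 0.02, with 2 fitted higher, and -0.05, with 1 fitted higher, without those libraries. Among 4 tested miRNAs known to respond to axotomy 0 were called, and miR-21-5p was at 0.17 ± 0.18 with a median of 18757 CPM in bPYX+GFP, and at 0.04 without those libraries.

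Other cell types of the ganglion gave the following counts, beside 5.09% of all miRNAs called higher and 3.49% called lower. The 4 tested glial miRNAs were all fitted lower, 0 of them called, with a median of -0.16 and miR-204-5p at -0.19 ± 0.13 (exact p = 0.169). The glial median was -0.03 without bPYX+NT3 replicates 3 and 5, with 1 of the 4 fitted higher, and miR-204-5p was at -0.05. Their summed level was 7859 to 10221 CPM in bPYX+GFP and 5655 to 11161 CPM in bPYX+NT3. Of 4 miRNAs of the inflammatory response 2 were called higher, both forms of miR-146b, and their sum was 7141 to 9846 CPM in bPYX+GFP and 8671 to 11775 CPM in bPYX+NT3. The inflammatory group had 1 call without those libraries and a median of 0.01, against 0.16 with them. Of 10 blood and immune cell miRNAs 0 were called (median -0.07, and -0.23 without those libraries), of 3 fibroblast miRNAs 0, of 4 smooth muscle miRNAs 1 higher (miR-145-5p), of 4 epithelial miRNAs 1 higher (miR-205), and of 4 cartilage miRNAs 1 lower (miR-455-3p). The summed epithelial level was 82.2 to 114.3 CPM in bPYX+GFP and 79.6 to 190.8 CPM in bPYX+NT3. The only tested endothelial miRNA was miR-126a-3p, 0 of 2 skeletal muscle miRNAs were called, and both liver forms stayed under the detection limit. The skeletal muscle group did not include the abundant miR-1b, which was not called. miR-1b was at 0.17 (exact p = 0.201), and at 0.03 without bPYX+NT3 replicates 3 and 5. The part of other cell types in the values above was not tested.

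Among miRNAs grouped by locus or family name, the imprinted Dlk1-Dio3 locus was the largest, with 68 tested miRNAs. Of these 2 were called higher and 2 lower, the median log2 fold change was 0.02, and 37 were fitted higher. Over all miRNAs 8.58% were called and 49.9% were fitted higher, and the small counts below are to be read beside these shares. All 4 tested miRNAs of the Hox clusters were fitted lower with 0 called (median -0.10, and -0.03 without bPYX+NT3 replicates 3 and 5), and of 11 named miR-99, miR-100 or miR-125, 2 were fitted higher with 0 called (median -0.09). Of 18 forms of let-7 1 was called higher and 1 lower (median 0.00). Of 9 forms of miR-30 2 were called lower and 3 were fitted higher (median -0.03). Without bPYX+NT3 replicates 3 and 5 the miR-30 median was 0.03, with 5 fitted higher. The 16 tested relatives of the miR-17 to miR-92 cluster had 1 called lower and 12 fitted higher (median 0.11), and the 6 of miR-15 and miR-16 had 0 called and 5 fitted higher (median 0.09). When bPYX+NT3 replicates 3 and 5 were left out, these became 8 of 16 fitted higher (median -0.01) and 1 of 6 (median -0.05). Of the 8 of miR-23, miR-24 and miR-27 1 was called lower, of the 6 of miR-148 and miR-152 1 lower, of the 6 of miR-181 1 higher, of the 2 tested of miR-29 1 higher (the other 5 listed forms were at 0 in all 12 libraries), and of the 4 of miR-193 and miR-365 1 higher.

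The largest fold change of all 373 belonged to a miRNA without a call. miR-741-3p, best known from the testis, was at 94.2 CPM in bPYX+GFP replicate 4 and at 1.38 to 4.92 CPM in the other bPYX+GFP libraries, and at 0.41 to 12.6 CPM in bPYX+NT3. Its log2 fold change was -2.15 ± 1.07 (exact p = 0.595), and the medians of 1.79 and 2.04 CPM were close. Without that bPYX+GFP library it was 0.65. Naive rats also had 1 library far above the rest, at 563.8 CPM.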

How the data were processed

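Small RNA was sequenced from ganglion RNA of 18 rats. The deposited values are raw read counts per mature miRNA, which the authors obtained for all 18 libraries. Per the study's methods, 1 rat judged an outlier in quality control was dropped from the authors' own comparisons. The labels do not link that rat to a library, so all 18 were kept and each of the 12 was left out in turn. The submitters' processing notes name bcl2fastq 1.8.4, Bowtie2, HTSeq and the Rnor_5.0 build, and the other versions are not given in the sources used here. The 5 rows that name no miRNA (unassigned, ambiguous, low-quality or unaligned reads, 61.8 to 67.6% of entries) were left out of totals and tests. Low-quality alignments alone were 28.0 to 35.1% of entries, which leaves near-identical miRNAs uncertain. No molecular identifiers are described, so reads are not independent molecules, and intervals cover the spread between these rats only.

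miRNAs with more than 10 counts in at least 6 of 18 libraries were fitted with edgeR 4.0.16 (R 4.3.3, TMM scaling, quasi-likelihood F test, Benjamini-Hochberg adjustment) over the 12 injured libraries, without covariates. The fit was also run on simulated counts drawn for each miRNA separately, so it was not checked against deviations shared by the miRNAs of a library. Printed CPM were scaled over all 18 libraries and the levels in the exact test over the 12 injured ones. SE and 95% intervals came from the F statistic. Called means an unadjusted edgeR p under 0.05, while the p printed beside a named miRNA or family is that of the exact two-sided permutation test, a choice of presentation made after the fits. Seeds were bases 2 to 8 of RefSeq sequences (GRCr8), matched for 687 of 753 names, and family counts were sums over all listed members. Named were all miRNAs with an unadjusted p under 0.05, families of 2 or more members likewise, some of the most abundant miRNAs, other arms and listed groups. miRNAs, families and lists were chosen with earlier results of these data known. miR-741-3p was named after its values were seen. Alternatives were median-of-ratios or library-total scaling, no filter or more than 100 counts, the likelihood ratio test, DESeq2 1.42.0, a robust prior, all 3 groups in the fit, a replicate block, exact permutation, leaving out each library, and, added after seeing the data, leaving out bPYX+NT3 replicates 3 and 5 together. No library was a copy of another (lowest chi-square per degree of freedom within a group, 39.65).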

Additional observations from a re-analysis of the deposited data

Results flagged for a closer look

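In each group of 6 libraries the highest or lowest value was compared with its nearest neighbour, and 12 of 130 such groups held a library that stood apart by Dixon's criterion, where chance alone gives about 6.5 at 1 in 20. bPYX+GFP replicate 3 was highest for miR-148a-3p, at 14544 CPM with the next library at 8266 CPM, and for the seed family CAGUGCA at 17034 CPM (next 9560 CPM), which shares most of its counts with the list of miR-148 and miR-152 at 17216 CPM (next 9761 CPM). The same library was highest for miR-30a-3p at 809.6 CPM (next 727.0 CPM), lowest for the summed miR-132 and miR-212 at 206.7 CPM (next 225.6 CPM), and the deepest with 6.92 M miRNA counts (next 4.66 M). The part of depth in these values was not tested.

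In bPYX+GFP, replicate 5 was lowest for miR-666-5p at 8.13 CPM (next 11.0 CPM), and replicate 2 was lowest for miR-664-2-5p at 55.3 CPM (next 65.6 CPM). The summed blood and immune cell miRNAs were highest in bPYX+GFP replicate 4 at 3166 CPM (next 2119 CPM). The summed liver miRNAs were highest in bPYX+GFP replicate 6 at 0.69 CPM (next 0.23 CPM), at the level of single counts. In bPYX+NT3, replicate 2 was highest for the summed cartilage miRNAs at 5746 CPM (next 4311 CPM), and replicate 4 for the summed Hox cluster miRNAs at 303710 CPM (next 227540 CPM).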

How the results depend on the processing

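No miRNA and no seed family had an adjusted p under 0.05 in any count-model fit run, each library left out included (0 in each), and no log2 fold change of the 32 called miRNAs or 6 called families of 2 or more members reversed its sign. The 32 miRNAs with an unadjusted p under 0.05 became 54 without a detection filter, 29 of them shared, and the 29 families became 47. More tests were made there, 562 miRNAs and 438 families. With each library left out the counts ran from 24 to 54 miRNAs and from 19 to 46 families. Without bPYX+NT3 replicates 3 and 5 they were 20 and 18, a choice made after seeing the data. The cause of these shifts was not tested. Under the other scalings, filters and tests the count of miRNAs was 26 to 40, with 22 to 31 of the 32 shared, and DESeq2 gave 33. The 22 belong to the filter of more than 100 counts, where 1 lost the call and the rest of the 32 were not tested. Of the 32, 18 lost the call without both libraries and 1 to 5 under each of these other alternatives. Same-numbered replicates deviated together little (correlations -0.15 to 0.18, with 2 of 6 numbers correlating best with themselves). Numbers 2, 4 and 6 were at 0.15 to 0.18, and the labels give no link between them beyond the number. A replicate block gave 39 miRNAs, 28 of them among the 32, and 35 families. The 4 that lost the call with it were miR-666-5p, miR-205, miR-301a-5p and miR-664-2-5p. The number of miRNAs with an interval inside 2-fold was 247 with the filter of more than 100 counts, where fewer were tested, and 348 to 367 otherwise. Among the tiers of level, the median standard error was largest for miRNAs under 10 CPM, and 380 listed miRNAs were not tested.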
